A study of Mus musculus with 7 samples.

Results

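The comparison described here was the addition of anti-IgM to BAFF for 8 h in primary mouse B cells. It set the library of cells given both stimuli for 8 h against the library of cells given BAFF alone for 8 h, which were 2 of the 7 RNA sequencing libraries. All were made from wild type B cells of the C57BL/6 background, and each condition was 1 library: no stimulus at 0 h, and 6 cultures with anti-IgM alone, with BAFF alone or with the pair of them, for 8 h or 30 h. Doses, sex, age and the number of animals pooled were not given in the sources used here. No library was cultured without a stimulus. With 1 library a condition there was no test between conditions, and every interval given below covers counting error only.

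Anti-IgM crosslinks the surface IgM of B cells and so stands in for antigen. The antigen receptor signals through the kinases Lyn, Syk and Btk to calcium, the MAP kinases and the canonical NF-kappaB pathway, and its early targets include the EGR and NR4A factors and Myc. BAFF is a cytokine of the TNF family that keeps mature B cells alive, chiefly through the BAFF receptor and the alternative NF-kappaB pathway. Because BAFF was in both cultures and the time was the same, the comparison addressed what receptor crosslinking added to cells already given the survival cytokine.

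The files gave FPKM, fragments per kilobase of transcript scaled to the mapped fragments of the library, for transcripts assembled separately from each set of reads. The FPKM of a gene is the sum over its transcripts, and differences were taken on the log2(FPKM + 1) scale as both minus BAFF. A gene was called higher or lower when it differed by at least 1 on that scale, which is 2-fold after adding 1, and its 2 intervals of counting error lay apart. It was called held when reads calculated back over all its exons showed a difference of that size in that direction too. That second measure comes from the same FPKM values and guards only against differences in how a gene was pieced together. The library with BAFF had an estimated 18.75 M mapped reads and that with both stimuli 18.92 M, and the estimates for the 7 libraries were 18.75 to 28.61 M.

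With anti-IgM added to BAFF, 9811 genes could be compared, of which 556 were higher (5.67%) and 669 lower (6.82%), together 1225 (12.5%). Of these, 261 were higher and held (2.66%) and 304 were lower and held (3.1%). These shares are the background for the list counts given below. With the intervals ignored 557 genes were higher and 673 lower, so the calls rested almost wholly on the 2-fold line. The median difference over all genes was 0.01, and the middle 90% of genes lay between -1.15 and 1.04. Receptor-induced transcription factors, ribosome biogenesis factors and chaperones stood on the higher side. Quiescence factors, antigen receptor signalling genes and several B lineage factors stood on the lower side. The scatter of gene levels shows both sets on either side of the diagonal over the whole range of expression.

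**Figure D1:**
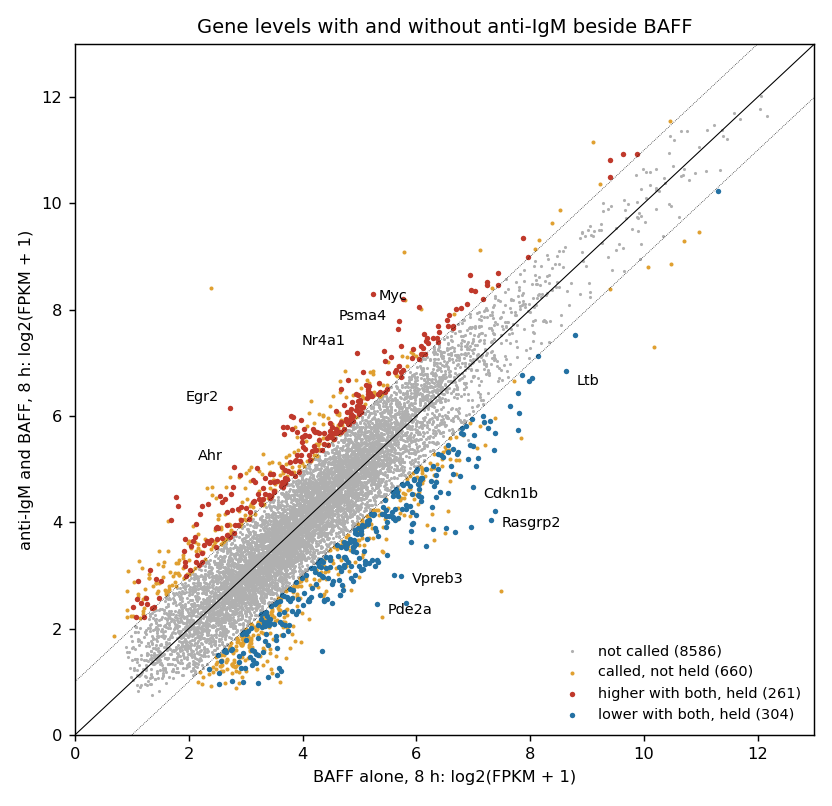
Each dot is 1 of 9811 genes, with log2(FPKM + 1) in the BAFF library at 8 h on the horizontal axis and in the library with both stimuli on the vertical axis. The solid line marks equal levels and the dotted lines a difference of 1. The 261 higher and held genes (red) include Egr2 and Myc, and the 304 lower and held genes (blue) include Rasgrp2 and Cdkn1b.

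The label of B cells was checked against markers. Of 10 B cell markers, 9 were assembled in both libraries and Cd79a under that name in none of the 7. Among them were Ms4a1 at 250 FPKM with BAFF and 135 with both, and Cd79b at 470 and 312. Pax5 and Cd22 were lower and held, none was higher, and the median of the list was -0.69. Of 14 T cell markers only Lck (14.9 FPKM with BAFF, 44.8 with both) and Cd5 (1.10, 3.68) were compared. Both were higher and held, and their summed FPKM was 16.0 and 48.5. Cd3e, Cd3d, Trac and Thy1 were assembled in no library. Of 19 macrophage markers 8 were compared, with a median of -0.11 and 1 gene lower, the adaptor Tyrobp (24.7 FPKM with BAFF, 7.45 with both). Their summed FPKM was 98.7 with BAFF and 71.2 with both, against 548 in the unstimulated library. Emr1, the gene of F4/80, had 11.3 and 5.44, and Cd68 was assembled in no library. No neutrophil marker was assembled in any library. Of 12 erythroid markers 2 were assembled with BAFF (48.1 FPKM in sum) and 0 with both. In such bulk samples fewer cells of a type and less RNA per cell cannot be told apart, and the part of other cells in the differences below was not tested.

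The factors that antigen receptor signals induce included the largest increase among the named genes. Of 27 listed factors 24 were compared, of which 8 were higher, all of them held, and 3 were lower, none of them held. Their median was 0.64, against 0.01 over all genes, of which 5.67% were higher and 6.82% lower. Egr2, a zinc finger factor of the early growth response family, was that gene. Its FPKM was 24.4 at 0 h, 67.2 with anti-IgM, 5.60 with BAFF and 70.2 with both at 8 h, and 82.4, 8.81 and 60.3 in the same order at 30 h. The 4 libraries with anti-IgM thus lay above the other 3, and the 8 h difference was 3.43 (interval 3.28 to 3.59).

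Egr1 and Nr4a1 had another order over the libraries, with their highest level at 0 h. Egr1 had 264 FPKM unstimulated, 61.6 with anti-IgM, 14.7 with BAFF and 59.9 with both at 8 h, a difference of 1.96. Nr4a1, an orphan nuclear receptor known as a reporter of receptor signalling, had 352 FPKM unstimulated, 204 with anti-IgM, 29.9 with BAFF and 145 with both at 8 h, a difference of 2.24. For both genes the BAFF library was the lowest of the 8 h libraries. Egr3 (23 FPKM with BAFF, 66.9 with both), Nr4a3 (7.95, 26.1) and Nr4a2 (1.22, 4.57) were higher as well, Nr4a2 by only 0.51 with the most abundant transcript alone.

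The AP-1 factors did not move as 1 group. Batf, an AP-1 partner needed for class switching, had 13.4 FPKM unstimulated, 48.6 with anti-IgM, 19.9 with BAFF and 50.4 with both at 8 h, and was higher by 1.30. Fos had 627 FPKM unstimulated but only 7.22 with BAFF and 2.50 with both, and Fosl2 had 12.4 and 5.66. Both were called lower without being held, and by reads over exons both lay above 0. Nfil3 (10.5, 4.44) was also lower and not held, and lay above 0 with transcripts of 500 bases or more. Among negative feedback genes of the MAP kinases, Dusp4, a phosphatase that switches them off, was higher and held (18.5 FPKM with BAFF, 50.6 with both), and Rasa3, a RAS GTPase activating protein, was lower and held (77.7, 13.6). Spred1, another inhibitor of the pathway, was higher but not held (3.76, 9.87). The list had 2 higher and 1 lower of 14 genes, beside 5.67% and 6.82% of all compared genes, and the other 11 were not called.

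The promoter of Nr4a1 is shown because it holds a match to the EGR motif, and EGR factors were among the higher genes. The sequence is the 200 bases before the RefSeq start on GRCm38.p6, chr15:101266646-101266845, plus strand, with capitals at the 9-base match, which begins 60 bases before the start.
Nr4a1: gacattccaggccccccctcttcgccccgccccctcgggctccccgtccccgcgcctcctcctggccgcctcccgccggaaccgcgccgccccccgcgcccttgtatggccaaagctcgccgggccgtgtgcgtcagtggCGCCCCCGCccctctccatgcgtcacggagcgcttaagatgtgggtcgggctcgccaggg
The EGR letters searched were GCGTGGGCG and GCGGGGGCG, on either strand, in RefSeq promoters of 300 bases, and this match reads on the minus strand. They were found in 3 of the 15 matched promoters of the receptor-induced factors and in 7.07% of the 5965 promoters of compared genes. Among the promoters of higher and held genes the share was 5.62%, and among lower and held genes 5.88%, so neither stood above all compared genes. A match is a run of letters and not a measured binding site.

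Myc, the transcription factor that drives ribosome synthesis and cell enlargement, was higher by 2.01. It had 143 FPKM unstimulated, 263 with anti-IgM, 64.7 with BAFF and 264 with both at 8 h, and 61.2, 29.8 and 59.9 at 30 h. The level with both stimuli was thus near that with anti-IgM alone, and BAFF alone lay below the unstimulated library. Of 9 compared members of the MYC network, Mxd4, which competes with MYC for MAX, was the only one lower (21.4 FPKM with BAFF, 8.72 with both), and 7 were not called. Calls were made for 12.5% of all compared genes. Haus3 lies within 1000 bases of Mxd4, and the reads of such neighbours could not be fully separated.

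Ribosome biogenesis factors had the highest median of the pathway lists with 8 or more compared genes. All 41 listed genes were compared, of which 24 were higher and held, 0 were lower and 17 were not called. The median of the list was 1.09 and 40 lay above 0, beside 5008 of all 9811 compared genes. The share called higher was 5.67% over all compared genes. Npm1, a nucleolar chaperone, had 673 FPKM with BAFF and 1448 with both, beside 496 unstimulated and 1519 with anti-IgM alone. Nolc1, which assembles small nucleolar RNPs, had 39.5 FPKM with BAFF and 97.3 with both. Polr1b, a core subunit of RNA polymerase I, had 18.0 and 51.0 (a difference of 1.45, and 0.78 with the most abundant transcript alone), and the RNA helicase Ddx21 had 71.8 and 175. In each of these the library with both stimuli lay close to that with anti-IgM alone at 8 h (102 FPKM for Nolc1, 40.7 for Polr1b and 163 for Ddx21).

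Some members had larger differences that rested on the library with both stimuli alone. Fbl, the methyltransferase of small nucleolar RNPs, had 53.3 FPKM with BAFF and 292 with both, but 77.6 to 113 in the 4 other stimulated libraries and 79.8 unstimulated. Its reads over exons differed less, with 49.6 and 128 on the same scale, and Dyrk1b lies within 1000 bases. Noc3l, a 60S export factor, had 12.2 and 54.7 FPKM but 11.9 and 25.7 by reads over exons. The genes for the cytosolic ribosomal proteins themselves did not go with the biogenesis factors. Of 52 compared, 3 were higher and 4 lower, none was held, and the median was 0.08.

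The promoters of Nop2, Cdk4 and Ldha are shown because they hold the E-box CACGTG, the letters known for MYC with MAX, and because the 3 genes were higher and held. Each sequence is the 200 bases before the RefSeq start on GRCm38.p6, 5′ to 3′ on the plus strand, with the E-box in capitals. The regions are chr6:125131683-125131882 for Nop2, chr10:127063335-127063534 for Cdk4 and chr7:46845604-46845803 for Ldha.
Nop2: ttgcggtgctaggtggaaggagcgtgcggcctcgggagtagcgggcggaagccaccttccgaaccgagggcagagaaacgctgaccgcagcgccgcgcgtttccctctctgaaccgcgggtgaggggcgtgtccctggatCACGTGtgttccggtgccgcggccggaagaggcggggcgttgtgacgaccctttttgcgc
Cdk4: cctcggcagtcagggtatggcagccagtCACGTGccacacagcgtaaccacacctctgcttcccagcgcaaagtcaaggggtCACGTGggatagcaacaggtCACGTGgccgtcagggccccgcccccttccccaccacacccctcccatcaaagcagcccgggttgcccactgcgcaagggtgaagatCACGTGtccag
Ldha: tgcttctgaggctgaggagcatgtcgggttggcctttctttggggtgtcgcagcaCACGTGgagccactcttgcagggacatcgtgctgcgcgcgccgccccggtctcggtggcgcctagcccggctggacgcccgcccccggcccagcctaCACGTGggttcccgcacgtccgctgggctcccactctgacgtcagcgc
Nop2 holds 1 match, Cdk4 holds 4 and Ldha holds 2. Of the 178 higher and held genes with a matched promoter of 300 bases, 33 held the E-box (18.5%). The share was 7.06% of 170 promoters of lower and held genes, 11.5% of the 5965 of all compared genes and 7.15% of the 32851 promoters of the whole RefSeq table. Over lists on the higher side the share was uneven. Among others, it was 19.4% for ribosome biogenesis, 31.6% for translation factors and 33.3% for aminoacyl-tRNA synthetases. For glycolysis, the list of Ldha, it was 10.5%. For chaperones and for amino acid and one-carbon genes it was 5.88% each, and for the proteasome 5%. Outside these lists it was 37.5% for lysosome genes, with a median of -0.26, 33.3% for p53 targets and 6.25% for quiescence factors. These shares are descriptions with no test. Nop2, a ribosomal RNA methyltransferase, had 34.1 FPKM with BAFF and 80.0 with both, with Iffo1 as a close neighbour.

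Chaperones were the list with the next highest median. Of 26 listed genes 23 were compared, of which 8 were higher and held, 0 were lower and 15 were not called, with a median of 0.87. Hspa8, the constitutive HSP70, had 679 FPKM unstimulated, 1835 with anti-IgM, 679 with BAFF and 1792 with both. Hspd1, the mitochondrial chaperonin, had 123 FPKM with BAFF and 328 with both, and its co-chaperonin Hspe1, which lies beside it, had 122 and 403. Hsp90ab1, an abundant HSP90, had 796 and 1956. For Hspa8 the BAFF library thus stood at the unstimulated level. In the endoplasmic reticulum list 2 of 21 compared genes were higher and held, the HSP70 Hspa5 (151 FPKM with BAFF, 353 with both) and Sdf2l1 (9.71, 25.9), and the median was 0.50. Beside both lists stands the 5.67% of all compared genes that were higher.

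The proteasome list moved by a smaller amount but in 1 direction. All 25 genes compared lay above 0, with a median of 0.69, though only 2 passed the call. These were Psma4, an alpha subunit of the 20S core (50.2 FPKM with BAFF, 198 with both), and Psmb5, its chymotrypsin-like subunit (66.6, 142). Translation factors had a median of 0.78 with 3 of 25 higher and 0 held. Aminoacyl-tRNA synthetases had a median of 0.54, with 15 of 20 above 0 and 0 called. Mitochondrial ribosome and import genes had 4 higher and 1 lower of 28, a median of 0.61 and 2 held, Mrpl12 (48.5, 113) and Mrpl15 (31.2, 78.2). Of all compared genes 5.67% were higher and 6.82% lower.

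Called genes for amino acid supply were all on the higher side. Of 21 compared genes for amino acid and one-carbon metabolism 6 were higher, 4 of them held, 0 were lower and 15 were not called, with a median of 0.84. Slc7a5, the large neutral amino acid transporter, had 30.8 FPKM with BAFF and 64.3 with both. Shmt2, the mitochondrial serine hydroxymethyltransferase, had 72.8 and 164. Slc3a2, the partner chain of Slc7a5, had 44.5 and 110 but was not held, and Snhg1 lies close to it. Psph was assembled only with BAFF and Shmt1 only with both, so neither was compared. By reads over exons Psph had 11.3 with BAFF and 3.41 with both, and Shmt1 had 5.49 and 31.9. In polyamine synthesis Odc1 (93.8, 237), the rate-limiting decarboxylase, and Srm (42.9, 87.0), spermidine synthase, were the 2 higher genes of 8. Both lists stand beside a share of 5.67% higher among all compared genes.

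Glycolysis had 5 higher genes of 22 compared, all held, with 0 lower and a median of 0.50. They were Hk2 (3.83 FPKM with BAFF, 10.9 with both), Pfkp (28.7, 58.5), Ldha (150, 366), the lactate exporter Slc16a1 (9.14, 27.7) and G6pdx (10.1, 28.9), the entry to the pentose phosphate pathway. G6pdx has Ikbkg within 1000 bases and had 12.4 FPKM with anti-IgM alone, so it did not follow the other 4. Oxidative phosphorylation also had a median of 0.50, but with 2 of 35 genes higher its share was near that of all compared genes (5.67%), and 1, Ndufs3, was lower and not held (90.3, 39.8). Sterol and fatty acid synthesis had 4 higher of 31 and a median of 0.47. Cyp51 (31.6, 66.6) and Acaca (9.8, 21.0), the first enzyme of fatty acid synthesis, were held, while the sterol enzymes Sqle (31.9, 59.6) and Idi1 (78.4, 153) stayed just under the 2-fold line.

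Nucleotide synthesis was mixed, with 3 higher and 2 lower of 25, beside 5.67% and 6.82% of all compared genes. Ctps (17.4 FPKM with BAFF, 42.5 with both), CTP synthase, and Ppat (13.6, 28.4), the first step of purine synthesis, were higher and held. Dck, the salvage kinase, was lower and held (22.2, 6.42). Tyms had the largest difference of any list member, from 179 to 5.49 FPKM, but its reads over exons were 14.9 and 13.6. It was therefore not held.

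**Figure D2:**
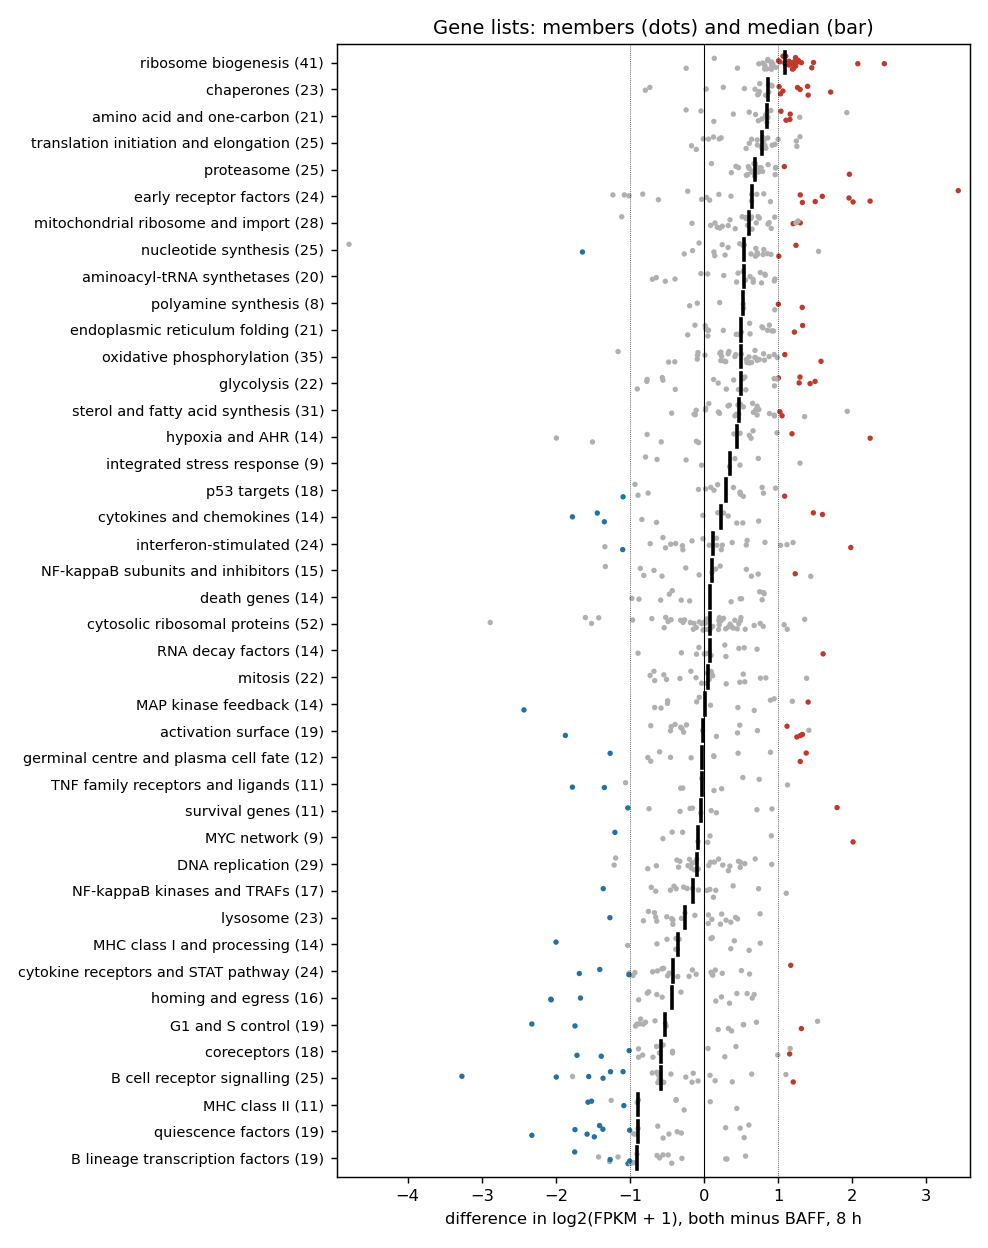
Each dot is a gene of a list, placed by its difference in log2(FPKM + 1), both minus BAFF at 8 h, and each black bar is the median of the list, with the number of compared genes in brackets. Red and blue dots are higher and lower genes that were held. Ribosome biogenesis had the highest median (1.09), and MHC class II (-0.89), quiescence factors (-0.89) and B lineage transcription factors (-0.91) lay close together at the low end.

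Quiescence factors lay on the lower side. Of 19 compared genes 7 were lower, all held, 0 were higher and 12 were not called, with a median of -0.89, whereas 6.82% of all compared genes were lower. Cdkn1b, the inhibitor p27 of cyclin-dependent kinases, had the largest difference by FPKM. Its FPKM was 65.2 unstimulated, 27.6 with anti-IgM, 126 with BAFF and 24.4 with both at 8 h, and 88.2, 47.0 and 70.7 at 30 h. Its FPKM difference of -2.33 was -1.35 by reads over exons, which were 39.7 unstimulated, 38.4 with BAFF and 14.5 with both at 8 h, and 29.6 with BAFF and 22.4 with both at 30 h. By that measure BAFF at 8 h was not its highest library, and the order of BAFF and both was the same at both times.

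Klf2, a factor that holds lymphocytes in quiescence and sustains their traffic, had 158 FPKM unstimulated, 18.8 with anti-IgM, 58.0 with BAFF and 18.8 with both at 8 h. Tsc22d3, the glucocorticoid-induced leucine zipper, had 75.5 with BAFF and 26.4 with both, and Txnip, the thioredoxin-interacting protein, had 128 and 49.0. Foxo1 (48.7, 23.8), Pik3ip1 (17.0, 5.77), an inhibitor of PI3 kinase, and Cdkn2d (10.6, 2.46), the inhibitor p19, were lower too. Foxo1 lay at the line, with a difference of -1.0. The members Btg1 (202, 294) and Klf4 (1.74, 3.16) lay on the other side of 0 without being called.

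Homing and egress receptors had 3 lower genes of 16, all held, and 0 higher, with a median of -0.44. Of all compared genes 6.82% were lower. S1pr1, the receptor that brings lymphocytes out of lymphoid tissue, had 77.6 FPKM unstimulated, 19.0 with anti-IgM, 59.1 with BAFF and 13.3 with both at 8 h, and 20.8, 67.6 and 9.48 at 30 h. The 4 libraries with anti-IgM lay below the 3 without it. Rgs14, a regulator of G protein signals, had 18.7 and 5.2, while the chemokine receptors Ccr7 (313, 397), Cxcr5 (101, 81.0) and Cxcr4 (103, 69.0) were not called.

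Genes of antigen receptor signalling were mostly on the lower side. Of 25 compared genes 7 were lower, 6 of them held, and 2 were higher, 1 of them held, with a median of -0.59. The shares over all compared genes were 6.82% lower and 5.67% higher. Rasgrp2, an exchange factor for RAP1, had the largest difference of the lower and held named genes, at -3.27. Its FPKM was 225 unstimulated, 11.3 with anti-IgM, 157 with BAFF and 15.4 with both at 8 h, and 22.7, 68.7 and 18.0 at 30 h, so all 4 libraries with anti-IgM lay below the rest. Rasgrp1 (28.8, 11.4) and Rasgrp3 (64.9, 21.4), which activate RAS downstream of diacylglycerol, were lower as well.

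Bank1, an adaptor of the receptor, had 132 FPKM with BAFF and 32.3 with both, and the kinase Syk had 221 and 85.3. Dapp1, an adaptor bound to PI3 kinase products, had 25.4 and 11.4. Vav3, an exchange factor for RAC, went against the list, with 4.60 FPKM with BAFF and 11.9 with both. Btk (90.2, 55.1), Lyn (69.0, 44.4), Plcg2 (67.2, 56.5) and Blnk (92.0, 86.9) were not called.

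Coreceptors had 3 lower genes of 18, all held, and 2 higher, 1 of them held, with a median of -0.58. Of all compared genes 6.82% were lower and 5.67% higher. The inhibitory lectins Cd22 (353 FPKM unstimulated, 50.8 with anti-IgM, 167 with BAFF, 50.1 with both at 8 h) and Siglecg (277, 73.6, 156 and 58.9) were lower. Cd24a, a glycosylated surface protein, was at the line (282 with BAFF, 140 with both). Cd5, a negative regulator found on B-1 cells, was higher from a low level (1.10, 3.68). Cd22 and Cd24a each had another expressed gene within 1000 bases.

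Transcription factors of the B lineage had a median of -0.91, beside -0.89 for each of the quiescence and class II lists, with 7 of 19 lower, 4 of them held, and 0 higher. Among all compared genes 6.82% were lower and 5.67% higher. Ets1, which restrains plasma cell differentiation, had 222 FPKM with BAFF and 65.5 with both. Pou2af1, the coactivator of octamer factors, had 159 unstimulated, 116 with anti-IgM, 441 with BAFF and 182 with both, so the BAFF library stood above the other 3 of these. Pax5, the factor that fixes B cell identity, had 111 and 53.9, a difference of -1.03 that was -0.23 with the most abundant transcript alone, and Foxo1 is also in this list. Ebf1 (70.1, 28.4), Bcl11a (35.0, 15.1) and Tcf4 (78.2, 28.5) were lower but not held, and Tcf4 lay above 0 by reads over exons (0.24) and with transcripts of 500 bases or more (0.32). The median was closer to 0 by reads over exons, at -0.59, and with the most abundant transcript or transcripts of 500 bases or more, at -0.64 in each, and there it was no longer the lowest.

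MHC class II genes had 4 lower of 11 compared, 3 of them held, 0 higher and a median of -0.89. The share lower was 6.82% over all compared genes. The 4 lower genes all encode chains of H2-DM or H2-DO, which govern peptide loading. H2-DMa, the alpha chain of the peptide exchanger H2-DM, had 150 FPKM unstimulated, 41.9 with anti-IgM, 127 with BAFF and 42.2 with both at 8 h, and 80.1, 101 and 65.7 at 30 h. H2-Oa, a chain of its inhibitor H2-DO, had 64.7 with BAFF and 21.9 with both, and the partner chain H2-Ob had 135 and 104 by FPKM but 126 and 41.1 by reads over exons. H2-DMb1 (86.0, 35.5, not held) and H2-DMb2 (230, 108) are neighbours whose transcripts overlap and were assembled apart in only some libraries, so their split is uncertain. Among the uncalled members were the invariant chain Cd74 (4235, 3515), H2-Eb1 (728, 560), H2-Aa (159, 169) and the transactivator Ciita (35.8, 18.9; interval of the difference -1.65 to -0.12).

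Class II is also carried by macrophages and dendritic cells. The 8 compared macrophage markers had a median of -0.11, with 1 lower and a summed FPKM of 98.7 with BAFF and 71.2 with both. Of 11 dendritic markers 2 were compared, with a median of 0.25 and 0 called, and the summed FPKM of the list was 44.9 over 3 assembled genes with BAFF and 80.7 over 4 with both. The promoter of H2-Oa is shown as that of a held class II gene, with a CCAAT box on the minus strand in capitals, on GRCm38.p6, chr17:34092179-34092378, plus strand. The box is the NF-Y element that class II promoters are known for.
H2-Oa: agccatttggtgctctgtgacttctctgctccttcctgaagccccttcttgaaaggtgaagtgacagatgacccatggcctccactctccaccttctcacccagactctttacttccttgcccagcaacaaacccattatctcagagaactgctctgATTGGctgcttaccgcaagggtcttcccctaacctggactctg
The letters CCAAT, on either strand, were in 5 of the 5 matched class II promoters of 300 bases. They were in 39.8% of the promoters of all compared genes, 38.2% of those of lower and held genes, 33.7% of those of higher and held genes and 37.4% of the whole table. Among other lists the share was 88.2% for sterol and fatty acid synthesis, 83.3% for endoplasmic reticulum folding and 82.4% for mitosis, but 11.1% for homing and egress.

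Survival genes divided. Bcl2l1, which encodes BCL-XL, was higher and held, and had 3.0 FPKM unstimulated, 50.3 with anti-IgM, 13.9 with BAFF and 50.7 with both at 8 h, and 33.1, 6.38 and 20.4 at 30 h. Bcl2 was lower and held, with 14.8 FPKM with BAFF and 6.74 with both. Mcl1 (167, 133) and the kinase Pim2 (99.1, 58.8), both known for B cell survival, were among the 9 of 11 that were not called. Bcl2a1b had 77.4 and 147, but its family of near-identical copies makes its reads uncertain. Of 14 death genes 0 were called, beside 12.5% of all compared genes, with a median of 0.09.

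Genes of the NF-kappaB family were called on both sides. Of 15 compared subunits and inhibitors 2 were higher, 1 of them held, and 1 was lower and not held, with a median of 0.11, and of 17 kinases and TRAFs 1 was higher and 1 lower, beside 12.5% of all compared genes called. Nfkbiz, a nuclear IkappaB, was the held gene (21.3 FPKM with BAFF, 51.4 with both). Nfkb2, the precursor of p52, had 184 and 198, and Rel had 85.6 and 143, and Relb had 101 and 63.1 by FPKM but 50.7 and 56.0 by reads over exons. In the list of kinases and TRAFs, Traf5 was lower and held (29.8, 11), while Traf3 (21.9, 16.6) and the kinase NIK, Map3k14 (27.6, 16.4), were not called.

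Of the receptors for BAFF, Tnfrsf13c, the BAFF receptor, had 48.8 FPKM with BAFF and 108 with both and was higher but not held (38.3 and 68.3 by reads over exons), and Tnfrsf13b, TACI, had 76.6 and 74.8. Ltb, lymphotoxin beta, which maintains follicular stroma, was lower and held. It had 236 FPKM unstimulated, 61.7 with anti-IgM, 396 with BAFF and 115 with both at 8 h, and 36.1, 480 and 149 at 30 h. At each time the library with both stimuli lay between the 2 single stimuli. Its partner Lta (9.61, 3.17) and the attractant Il16 (104, 37.8) were lower too. The chemokines Ccl3 (5.73, 17.7) and Ccl4 (15, 47.4), which draw T cells and macrophages, were higher.

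Cytokine receptors had 4 lower and 1 higher of 24, beside 6.82% lower and 5.67% higher of all compared genes. Il9r had 12.9 FPKM unstimulated, 7.07 with anti-IgM, 66.7 with BAFF and 20.1 with both at 8 h, and 4.90, 64.2 and 31.3 at 30 h, so it too lay between the single stimuli at both times. Il10ra (44.8, 16.3) and the feedback inhibitor Socs3 (4.70, 1.82) were lower and held. Stat5a was higher and held (23.1, 53.3). Among activation markers, Cd83 (173, 414), Il2ra (14.6, 37.6), the transferrin receptor Tfrc (30.3, 67.1) and Havcr1 (4.01, 11.6) were higher and held. Icosl, the ligand for ICOS on helper T cells, was lower (80.4, 21.2), and Cd86 (25.8, 36.4), Cd80 (7.08, 5.85) and Cd69 (22.9, 38.4) were not called.

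Cell cycle genes were called on both sides. In the list of G1 and S control 2 of 19 were higher and 2 lower, beside 5.67% and 6.82% of all compared genes. Cdk4, the kinase partner of D cyclins, was higher and held (82.4 FPKM with BAFF, 206 with both), with Tspan31 as a close neighbour, and Cdkn1b and Cdkn2d were the 2 lower genes. Rb1, the retinoblastoma gene, was higher but not held (12.0, 36.6), and lay below 0 by reads over exons. Ccnd2, cyclin D2, had 24.9 and 41.4 and was not called. For DNA replication and mitosis the shares called were near or below those of all compared genes. DNA replication had 0 higher and 2 lower of 29, none held, with a median of -0.09. Mitosis had 1 higher and 0 lower of 22, with a median of 0.06. The 1 higher gene, the condensin subunit Ncapg (1.77, 6.24), was not held and lay below 0 by reads over exons. The proliferation marker Mki67 had 3.53 and 2.61 at 8 h, beside 19.3 with BAFF and 30.4 with both at 30 h.

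Further genes came from the rule of the 15 largest held differences in each direction. Ahr, the aryl hydrocarbon receptor, had 4.01 FPKM unstimulated, 30.9 with anti-IgM, 5.95 with BAFF and 31.9 with both at 8 h, and was higher by 2.24, or by 1.13 with transcripts of any length. The large zinc finger gene Hivep3 (2.49 with BAFF, 18.8 with both), the receptor tyrosine kinase Axl (2.21, 15.4), the GTPase activating protein gene Tagap (12.9, 62.8) and the deaminase Dctd (4.05, 19.4) were higher as well. So was Isg15, an interferon-induced ubiquitin-like protein (11.8, 49.4), and the noncoding A430093F15Rik (3.68, 18.8). Axl had 21.7 FPKM in the unstimulated library, above that with both stimuli. With the most abundant transcript alone the differences were 1.40 for Hivep3, 1.57 for Axl and 1.10 for Dctd.

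On the lower side were Pde2a, a cyclic nucleotide phosphodiesterase (38.5 FPKM with BAFF, 4.54 with both), Vpreb3, a small chaperone of the B lineage (52.2, 6.94), and Acp5, an acid phosphatase (43.6, 9.38). Vpreb3 had 84.1 with BAFF at 30 h and 6.94 to 16.7 in the 4 libraries with anti-IgM. Pld4, an endosomal nuclease, had 47.5 and 6.99 at 8 h but 97.2 to 107 in the 3 libraries at 30 h. Sec31b (10.6, 1.17), Mex3b (11.2, 1.29), Asah2 (11, 1.38) and Zfp287 (9.50, 1.13) were lower from a low level. By reads over exons their differences were smaller, at -1.09, -1.34, -1.22 and -1.03, and with the most abundant transcript alone Asah2 (-0.87) and Zfp287 (-0.67) fell short of 2-fold, as did Sec31b with transcripts of 500 bases or more (-0.95).

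Several of the largest differences rested on 1 library. Dhx40, an RNA helicase gene, had 124 FPKM with BAFF at 8 h and 9.46 to 21.0 in the other 6 libraries. Macf1, a cytoskeletal linker, had 166 with BAFF and 17.5 with both, but its reads over exons were 34.3 and 13.2. The same held in part for Tcp11l2 (101 and 13.1 FPKM, 49.4 and 12.9 by exons), Snx20 (91.1 and 13.8, 22.6 and 6.38) and the transporter Tap1 (92.7 and 22.5, 27.7 and 11.4). On the higher side Znhit6 (13.3 and 61.8 FPKM, 7.84 and 17.5 by exons) and Actn1 (11.6 and 54.7, 11.4 and 27.4) were of that kind in size only. Both were also higher and held with anti-IgM alone at 8 h against the unstimulated library, Znhit6 by 1.04 and Actn1 by 1.58.

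**Figure D3:**
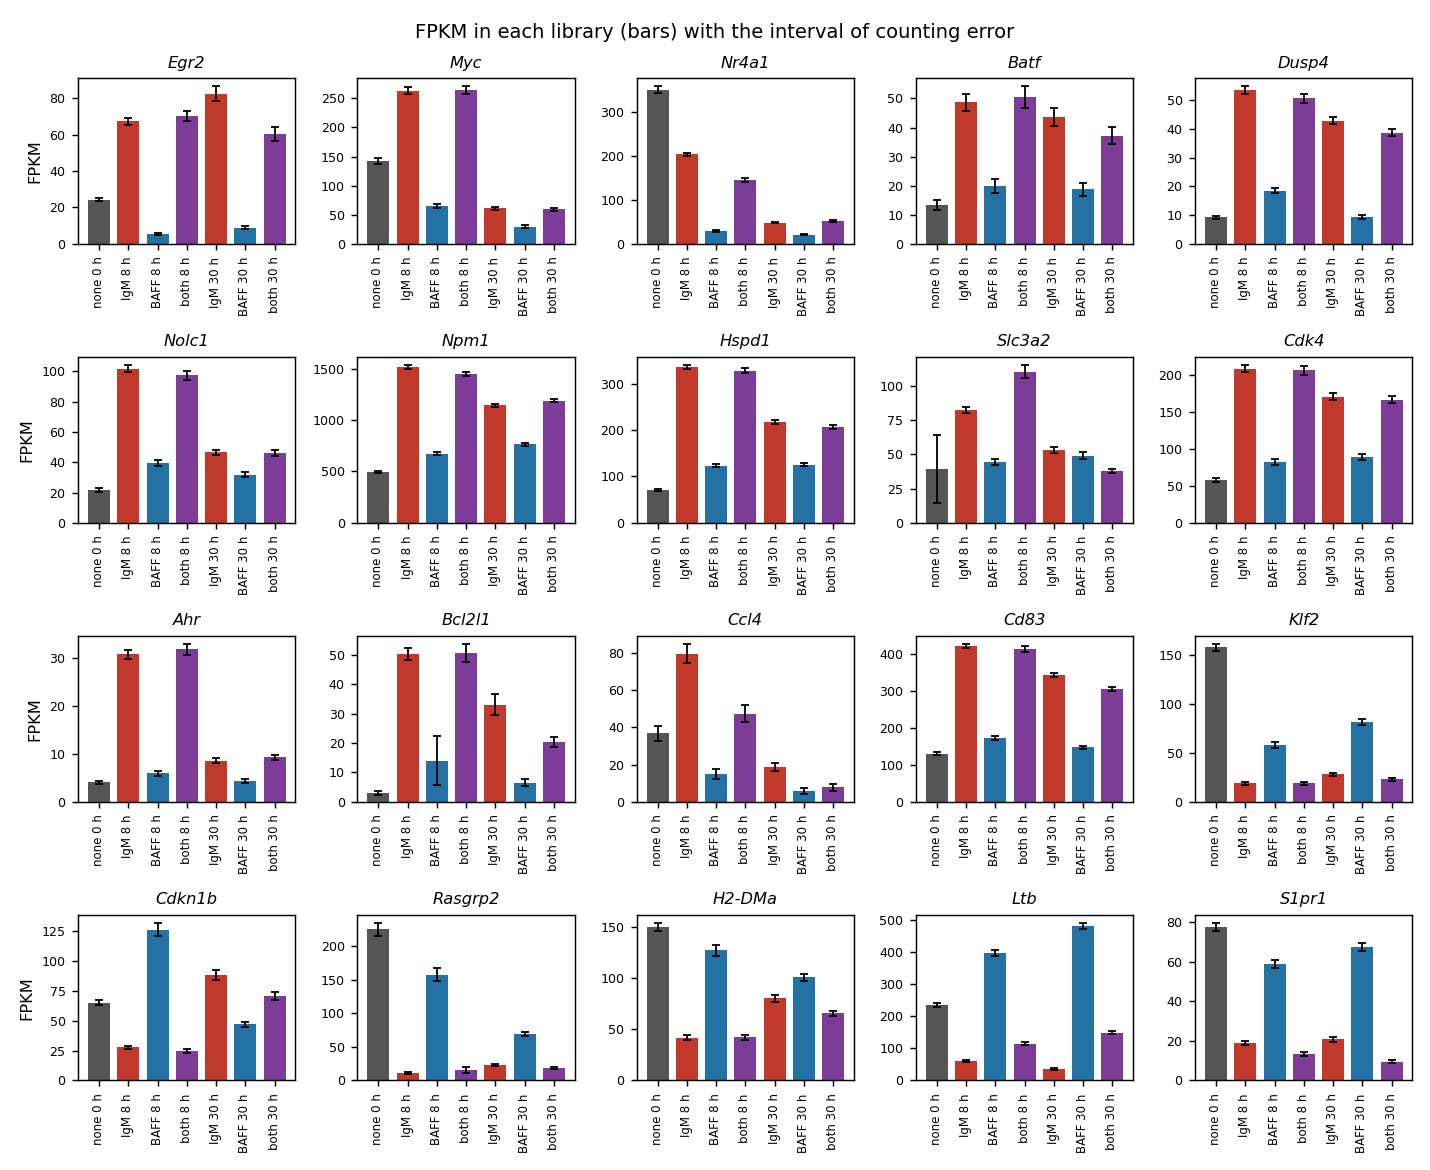
Bars give FPKM of 20 genes in each of the 7 libraries, with lines for the interval of counting error, in grey for no stimulus, red for anti-IgM, blue for BAFF and purple for both. At 8 h the purple bar stands near the red bar for Egr2 (70.2 and 67.2), Myc (264 and 263) and Klf2 (18.8 and 18.8), and between red and blue for Ltb (115, with 61.7 and 396).

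Where the library with both stimuli stood among all 7 was counted by reads over exons. The genes were chosen by the same reads in 2 of these libraries, which partly sets the order, so the counts are a description. Of the 261 higher and held genes, 136 had their highest value in it (52.1%) and 96 in the library with anti-IgM alone at 8 h (36.8%). Their lowest value was in the unstimulated library for 198 and in the BAFF library for 38. Over all 9811 compared genes 17.5% were highest with both at 8 h, 18.9% with anti-IgM at 8 h, and 35.9% were lowest in the unstimulated library. Of the 304 lower and held genes, 166 had their lowest value with both at 8 h and 80 with anti-IgM at 8 h, beside 14.5% and 11.8% of all compared genes. Their highest value was in the unstimulated library for 179 and in the BAFF library at 8 h for 86, beside 17.3% and 17.5% of all compared genes.

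The same contrast without BAFF set anti-IgM alone at 8 h against no stimulus at 0 h, and shares neither library with the comparison above. Its 2 libraries differ in culture time as well as stimulus, and these cannot be told apart. There 9827 genes were compared, of which 1058 were higher (10.8%) and 1031 lower (10.5%). Held genes were 797 on the higher side (8.11%) and 617 on the lower side (6.28%). Of 246 higher and held genes that could be compared in both contrasts, 183 were higher and held in this one too, which is 74.4% of that list and 23.1% of the other. Of 294 lower and held genes 205 were shared, 69.7% and 35.8% of the 2 lists.

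The ribosome biogenesis median was 1.64 without BAFF, against 1.09 beside it, and that of quiescence factors -1.25 against -0.89. Sterol synthesis had 18 higher of 31 and a median of 1.25 without BAFF, against 4 and 0.47 beside it. Sqle, for example, had 9.63 FPKM at 0 h and 57.6 after anti-IgM alone, beside the 31.9 and 59.6 given above. The receptor-induced factors had a median of -0.29 without BAFF, with 3 higher and 10 lower of 24, against 0.64 beside it. Of the 24, 10 lay above 0 and 14 below. Fos, Egr1 and Nr4a1 were high in the unstimulated library, as given above, whereas Egr2 and Batf were lower there than with anti-IgM. Whether any of these medians differ between the contrasts was not tested.

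The contrast of both stimuli against BAFF at 30 h used 2 further libraries. Of 9974 genes compared, 301 were higher (3.02%) and 509 lower (5.1%), and 86 (0.862%) and 149 (1.49%) of these were held. Of 255 higher and held genes at 8 h that were compared at both times, 24 were higher and held at 30 h, 9.41% of the 8 h list and 30.4% of that at 30 h. Of 293 lower and held genes 71 were shared, 24.2% and 55% of the lists. By sign alone, 85.5% of the higher genes lay above 0 at 30 h, against 46.6% of all genes, and 91.5% of the lower genes lay below 0, against 53.4%.

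Egr2 (2.64), Dusp4 (1.93) and Bcl2l1 (1.54) were higher by more than 2-fold at 30 h, as was Vav3 (2.44). S1pr1 (-2.71), Pde2a (-2.70), Icosl (-2.59), Vpreb3 (-2.27), Rasgrp2 (-1.87), Klf2 (-1.79) and Ltb (-1.68) were lower by more than 2-fold at 30 h. The ribosome biogenesis list had a median of 0.34 at 30 h with 1 of 41 higher, and chaperones had 0.38 with 0 of 23. DNA replication had a median of 0.70 at 30 h, beside -0.09 at 8 h, with 4 of 30 genes higher at the later time.

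**Figure D4:**
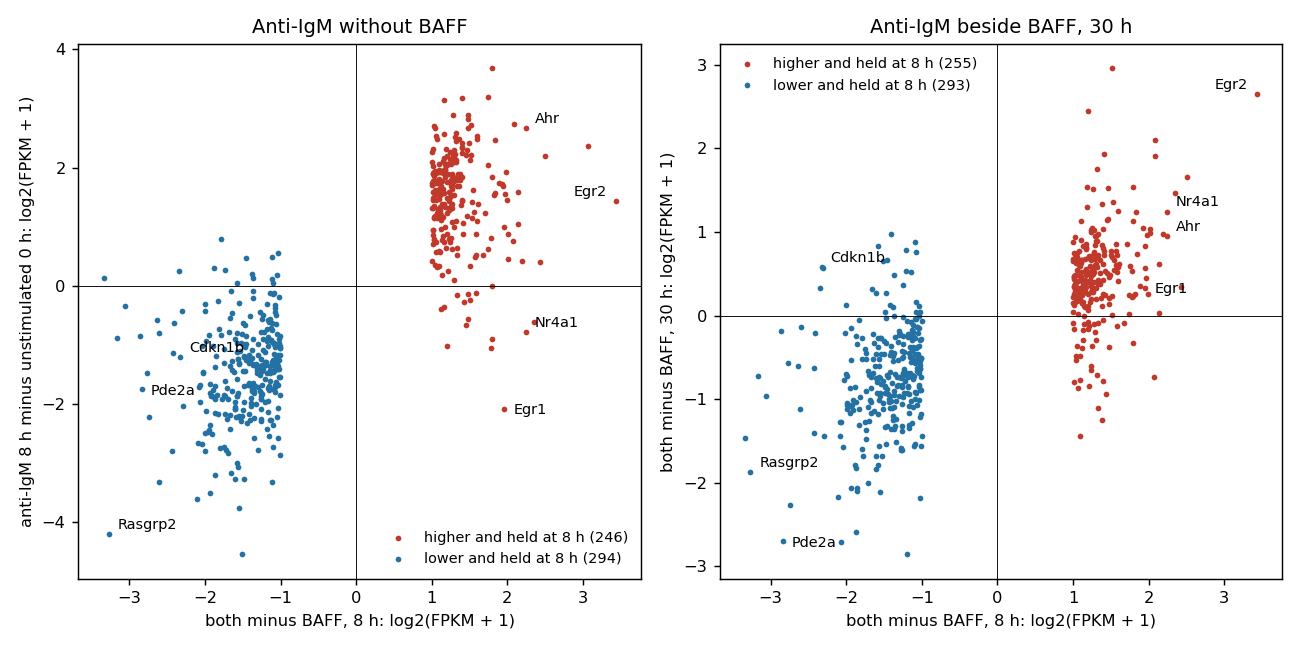
Each dot is a gene held at 8 h, red if higher and blue if lower, with its difference in log2(FPKM + 1), both minus BAFF at 8 h, on the horizontal axis. The vertical axis is the difference for anti-IgM at 8 h minus unstimulated (left, 246 and 294 genes) or for both minus BAFF at 30 h (right, 255 and 293 genes), and most dots keep their side of 0, with Egr1 at -2.08 on the left as an exception.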

How the data were processed

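RNA of 7 samples, 1 per condition, was extracted with a column kit, reverse transcribed from poly-dT primers and made into TruSeq libraries, per the labels' protocols. Per the submitters' processing notes, CASAVA 1.8.2, TopHat2 2.0.5, Bowtie2 2.0.0.7 and Cufflinks 2.0.2 were used, with the mouse build mm10. The deposited values are FPKM, given per transcript of each library's own assembly. The bounds deposited beside each FPKM were read here as 2 SD of counting error either way. FPKM can shift when a gene is pieced together differently in 2 libraries, or when neighbours are joined.

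Transcripts of at least 300 bases took the name of the gene in the merged assembly whose exons they overlapped most on their strand, and FPKM was summed per gene. Shorter pieces held 66.6% to 74.4% of summed FPKM. Genes assembled in both libraries, with 1 FPKM or more in either, were compared with a pseudocount of 1. Mapped reads were estimated from FPKM, bounds and lengths, and reads over exons were calculated back from them on either strand.

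The members, the 42 pathway lists and the 10 marker lists were chosen with earlier results of these data known. Named genes were the 15 largest held differences each way, at 5 FPKM or more, with no other expressed gene within 1000 bases, without predicted genes, small RNAs and immunoglobulin segments, and list members beside them. Of the list members, those printed were chosen by size of difference or for standing against their list. Promoters came from the RefSeq table on GRCm38.p6 (300 bases, matched within 1000 bases of an assembled start for 5965 of 9811 genes). Only the rule for calling genes was tried on simulated data, which held counting error alone. No p-values were computed. The alternatives covered pseudocount, filters, fold size, scalings, transcript length, reads over exons and close neighbours. Python 3.11.15, numpy 2.4.6, pandas 2.3.3, scipy 1.17.1 and matplotlib 3.10.9 were used.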

Additional observations from a re-analysis of the deposited data

Results flagged for a closer look

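Of the genes higher and held with both stimuli at 8 h, 3 were called lower with both stimuli than with BAFF at 30 h. They were Akap1 (-1.25 at 30 h on the log2 scale), Nr4a2 (-1.10) and Nsun2 (-1.44). Nsun2, an RNA methyltransferase gene, had 52.2 FPKM with BAFF and 113 with both at 8 h, and 106 and 38.5 at 30 h. Nr4a2 had 1.22 and 4.57 at 8 h, and 4.92 and 1.76 at 30 h. Another 3 were called lower with anti-IgM alone at 8 h than in the unstimulated library: 1700001L05Rik (-1.06), Egr1 (-2.08) and Lsmd1 (-1.02). Lsmd1 had 63.7 FPKM unstimulated, 31.0 with anti-IgM, 24.7 with BAFF and 58.1 with both at 8 h, and Cyb5d1 lies close to it. These differences of direction rest on 1 library each and were not tested.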

How the results depend on the processing

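No paired analysis was possible because each condition had 1 library, and no replicate could be left out for the same reason. The 556 higher and 669 lower genes became 1532 and 1463 at a difference of 1.5-fold, 32 and 47 at 4-fold, 338 and 436 by reads over exons, and 881 and 1130 with genes not assembled in 1 library set to 0. Leaving out genes with a close neighbour, chosen after seeing the data, left 332 higher genes. Equal sums of gene FPKM gave 436 higher and 784 lower genes, and upper quartile scaling 467 and 741, so that 35.7% and 38.7% of calls were higher, against 45.4%. Held genes became 16 higher and 28 lower at 4-fold, and 462 lower with genes not assembled set to 0. Scaling to equal sums of gene FPKM gave medians of 0.75 for amino acid and one-carbon genes, 0.77 for chaperones, 0.60 for the proteasome, -0.98 for MHC class II, -0.68 for receptor signalling and -1.0 for B lineage factors, and upper quartile scaling gave 0.80 for chaperones. With the most abundant transcript alone the medians were 0.72 for amino acid genes, -0.69 for quiescence factors and -0.64 for B lineage factors. The last was also -0.64 with transcripts of 500 bases or more and -0.59 by reads over exons, where receptor signalling had -0.41. Of 42 list medians 12 changed sign under at least 1 alternative, of which 11 lay within 0.11 of 0 and the other was that of hypoxia and AHR genes (0.44, and -0.03 by reads over exons). No scaling moved the median of all genes by 0.1. By reads over exons the sign of these genes turned: Fcrl1 (-0.29), Fos (0.07), Fosl2 (0.80), Ncapg (-0.10), Oas2 (-0.38), Oas3 (0.06), Rb1 (-0.15), Tcf4 (0.24), Tnfsf4 (0.04) and Tomm20 (0.58). With transcripts of 500 bases or more it turned for Fos (0.29), Fosl2 (0.11), Nfil3 (0.89), Tcf4 (0.32) and Tyms (0.33), and for Tyms with transcripts of any length (0.15). The cause was not tested. Depth limits genes under about 5 FPKM most, since their intervals are wide.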

Other observations

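Interferon-stimulated genes had 4 higher and 2 lower of 24 compared at 8 h, with a median of 0.12. Of all compared genes 5.67% were higher and 6.82% lower. Only Isg15 was held on the higher side, and only Gbp3, an interferon-induced GTPase, on the lower side (33.9 FPKM with BAFF, 15.3 with both). In the list of hypoxia and AHR genes Vegfa, an angiogenic factor, was higher and held beside Ahr (9.17, 22.2), while Ahrr, the repressor of AHR, was called lower without being held (9.38, 1.61). Of 18 compared p53 targets 1 was higher, Phlda3 (3.05, 7.61), and 1 lower, Sesn1 (55.8, 25.6), both held, with a median of 0.29. These shares were near the 5.67% higher and 6.82% lower of all compared genes. Zc3h12c, of the regnase family of RNA-binding proteins, was the 1 gene higher of 14 RNA decay factors (3.33, 12.2, a difference of 1.61, and 0.89 with the most abundant transcript alone). The share higher in that list was near that of all compared genes (5.67%). Ung, the uracil glycosylase that acts in class switching, was higher and held (6.32, 18.0) and again higher at 30 h (12.3, 32.7), though its 8 h difference of 1.38 was 0.52 with the most abundant transcript alone.

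Lck, a kinase best known in T cells, had 16.5 FPKM unstimulated, 45.8 with anti-IgM, 14.9 with BAFF and 44.8 with both at 8 h, and 93.8, 35.0 and 91.7 at 30 h. Pecam1, which is also an endothelial marker, had 76.8 with BAFF and 18.6 with both at 8 h, while the 8 other stroma markers of the list beside Cdh5 were assembled in no library. At 5 FPKM or more, 140 genes were assembled only in the BAFF library at 8 h and 113 only in that with both stimuli, and for 90 and 65 of them reads over exons were at least 2-fold higher there. A gene not assembled in a library is not thereby absent from it.

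The other letters searched in promoters were TCACCCCAC and TCACGCCAC (sterol element), GGACTTTCC and GGAATTTCC (kappaB) and TGACTCA (AP-1). Sterol letters were in 0 of 178 higher and held promoters and 0.687% of all compared. The kappaB letters were in 1.12% and 0.889%, and those of AP-1 in 2.25% and 2.85%.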
